A study of Mus musculus with 6 samples.

Results

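The genes described here are the 6 that code for the activators of the circadian clock and for a pair of retinoid-related orphan receptors: Clock, its relative Npas2, Arntl (Bmal1), its relative Arntl2 (Bmal2), Rora and Rorb. They were chosen by name for their place in the clock and not for their values, and they are 6 of the 27179 genes in the count tables. All 6 passed the filter on low counts, which 14069 genes passed.

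The mRNA-seq data came from 3 lines of mouse embryonic fibroblasts, with 2 libraries for each line, made from separate RNA preparations. In all 3 lines both Nr1d genes (Nr1d1, Nr1d2) are knocked out, together with Per1, Per2 and the endogenous Cry1 and Cry2. CPN-/- is the parental line. CPN-/-CRY1 and CPN-/-CRY2 carry mouse Cry1 or Cry2 cDNA introduced with a retrovirus under the viral promoter, so that the feedback of the clock does not act on this copy. Each was grown from a single colony selected with blasticidin, so the effect of the CRY protein cannot be told apart from that of the clone. The cells were kept in serum-containing medium without synchronization or other treatment. The comparisons ask how the transcripts of the lines with CRY1 or CRY2 differ from those of the parental line, with Per1, Per2 and both Nr1d genes knocked out throughout. Per3 is not among the knocked-out genes.

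CLOCK and BMAL1 are transcription factors of the bHLH-PAS family that bind as a dimer to E-boxes, the sequence CACGTG, in the promoters of the Per, Cry and Nr1d genes and of many output genes. NPAS2 can take the place of CLOCK in this dimer, and BMAL2 can take the place of BMAL1. CRY and PER repress the dimer, whereas RORA and RORB activate, and NR1D1 and NR1D2 repress, the Bmal1 gene through a shared element called the RORE, an A/T-rich stretch followed by the core AGGTCA.

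The promoters of the 6 genes are shown first, because the RORE ties the ROR receptors to Arntl. In the RefSeq promoter windows of mm10, each of 300 bases around a start site, 10 windows belonged to these genes. Both strands were searched. None of the 10 windows held the E-box CACGTG, which was found in 7.15% of all 32851 windows. In the list of E-box target genes used below, it was found in 6 of the 15 windows that matched, from 13 of 17 genes. A full RORE stood in the Arntl window whose start site lies at position 113207511 of chromosome 7, at position +27 from that start. It was found in 0.384% of all windows, and it contains the core AGGTCA, which alone was found in 16.3%. A second element of Arntl differed from the RORE at its last but one base and lay at position -10 from the same start. This relaxed form was searched for after the sequence had been seen and was found in 1.26% of all windows. Clock had a single AGGTCA on the opposite strand, at position -119 from one of its start sites, and Rorb had a single E'-box, CACGTT, on the opposite strand, at position -234 from its inner start site, with positions counted to the first base of the motif and the start site as +1. CACGTT was found in 4.68% of all windows, and the variant core GGGTCA, which no member window held, in 13.7%. These elements are printed below in the sense of the gene with the motif in capitals. A match is a description of the letters and no evidence of binding.
Arntl RORE, chr7:113207530-113207554, plus strand: aaggcagAAAGTAGGTCAgggacgg
Arntl relaxed RORE, chr7:113207494-113207518, plus strand: tggtcggAAAGTAGGTTAgtggtgc
Clock AGGTCA, reverse, chr5:76303609-76303628, minus strand: tggcctcTGACCTgacagat
Rorb E'-box, reverse, chr19:19001339-19001358, minus strand: acacagcAACGTGattcatg

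The libraries held between 25957409 and 36106949 counts. Levels are given as CPM, the counts scaled to library size with TMM factors. A gene was called different when edgeR's quasi-likelihood test over all 14069 genes gave an adjusted p below 0.05. The 2 CPN-/- libraries differed most. The SD of their log2 difference over genes was 0.38, compared to 0.15 for CPN-/-CRY1 and 0.16 for CPN-/-CRY2, and this difference rose with exonic length (Spearman 0.70 across 12478 genes, which are not independent replicates). Cry1 was higher in CPN-/-CRY1 (log2 fold change 0.57) and Cry2 in CPN-/-CRY2 (1.40). Both transcripts were also present in CPN-/-, at means of 120 and 132 CPM, so their counts do not check the knockout. The Per1, Per2, Nr1d1 and Nr1d2 genes still gave between 476 and 3756 counts per library, so their counts check neither the knockout nor the protein. The fibroblast markers Col1a1, Col1a2, Vim and Fn1 were between 1060 and 6340 CPM, but Lum had at most 3 counts in every library and Thy1 and Dcn were at most 2.24 CPM. In such bulk data, fewer cells of a type and less RNA per cell cannot be told apart.

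Per kilobase of exon, the 6 genes fell into abundant and scarce transcripts. Arntl was the most abundant in every line, with 13.7 ± 0.808 CPM per kb in CPN-/-, 17.6 ± 0.796 in CPN-/-CRY1 and 17.2 ± 0.706 in CPN-/-CRY2 (SD, n = 2). Clock followed with 7.69 ± 2.48, 11.7 ± 0.792 and 11.3 ± 0.817 CPM per kb, and Arntl2 with 3.38 ± 0.545, 3.26 ± 0.0102 and 3.85 ± 0.0413. Npas2, Rora and Rorb were below 1 CPM per kb in all 6 libraries. Their order changed from line to line. In CPN-/- it was Rorb (0.375 ± 0.105 CPM per kb), Npas2 (0.199 ± 0.0124) and Rora (0.0913 ± 0.0567). In CPN-/-CRY1 it was Npas2 (0.431 ± 0.0833), Rora (0.154 ± 0.00151) and Rorb (0.0946 ± 0.0262). In CPN-/-CRY2 it was Rorb (0.727 ± 0.114), Rora (0.141 ± 0.00086) and Npas2 (0.0696 ± 0.0242). Neighbours in these orders did not overlap in their libraries, and the order itself was not tested.

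**Figure D1:**
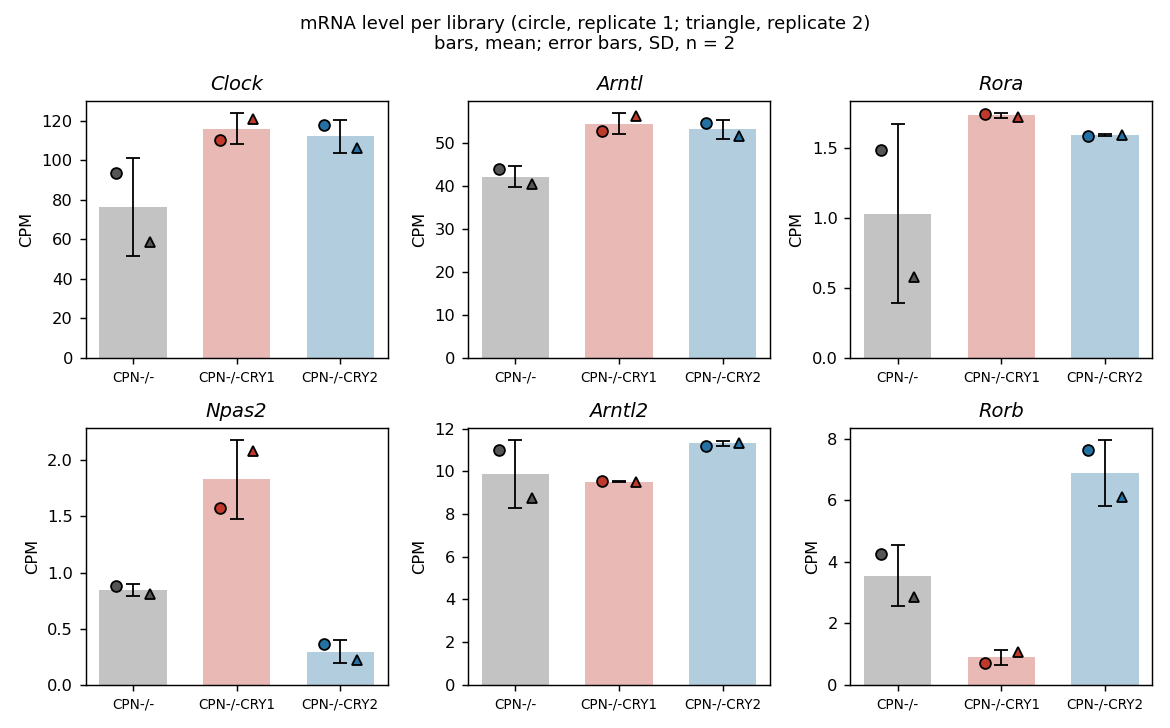
Level of each gene in CPM (linear axis from 0) in the libraries of the 3 cell lines. Points are libraries, bars are means and error bars are SD (n = 2). Arntl is higher in both CRY lines than in CPN-/-, Npas2 is highest in CPN-/-CRY1 and lowest in CPN-/-CRY2, Rorb has the opposite order, and the 2 CPN-/- libraries lie far apart for Clock and Rora.

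Among the 6 genes, 3 were called in CPN-/-CRY1 against CPN-/-: Npas2 and Arntl were higher and Rorb was lower. In this comparison 24.3% of all tested genes were called, 11.2% higher and 13.1% lower. None of the 6 was called by edgeR in CPN-/-CRY2 against CPN-/-, where 6.66% of all genes were called, 2.58% higher and 4.08% lower. Here 4 of the 6 had an unadjusted p under 0.05 and DESeq2 called 1, Rorb. Between the CRY lines, 2 of the 6 were called, Npas2 higher and Rorb lower in CPN-/-CRY1. The background here was 16.3%, 7.72% higher and 8.57% lower. The 6 genes had a median log2 fold change of 0.48 in the first comparison and 0.44 in the second, compared to -0.01 over all tested genes in both, and 0.04 when the CRY lines were compared. These medians were taken without removing the trend with exonic length seen between the CPN-/- libraries. With it removed, CPN-/-CRY1 gave 0.24 for Clock, 1.02 for Npas2, 0.38 for Arntl, -0.03 for Arntl2, 0.34 for Rora and -2.35 for Rorb. CPN-/-CRY2 gave 0.21, -1.57, 0.35, 0.21, 0.23 and 0.62 in the same order. Both comparisons with CPN-/- share the same control libraries.

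**Figure D2:**
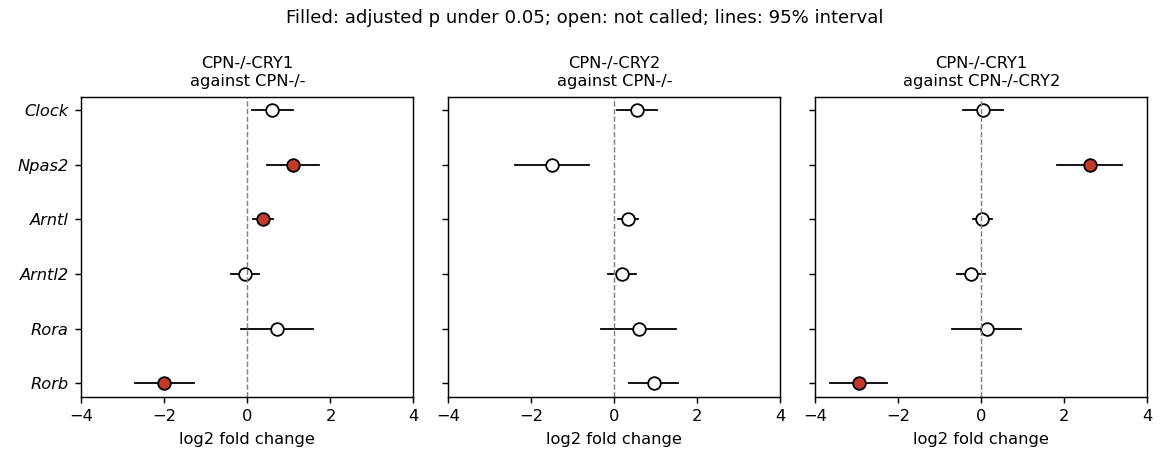
Log2 fold change of each gene in the 3 comparisons with its 95% interval, which rests on a spread pooled over the 3 lines. Filled points have an adjusted p under 0.05 from edgeR. Npas2 and Rorb lie on opposite sides of 0 in CPN-/-CRY1 and in CPN-/-CRY2, and their intervals between the CRY lines stay away from 0, whereas Clock, Arntl, Arntl2 and Rora have intervals between the CRY lines that include 0.

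Clock (gene ID 12753, chr5:76209868-76305603 on the minus strand of mm10, 23 exons in its longest coding transcript) codes for the DNA-binding partner of BMAL1 and was the second most abundant of the 6. It was at 93.7 and 58.9 CPM in CPN-/-, 110 and 121 CPM in CPN-/-CRY1, and 118 and 106 CPM in CPN-/-CRY2. Both CPN-/- libraries were below all libraries of the CRY lines, and replicate 2 was far below replicate 1. The log2 fold change was 0.60 ± 0.21 (SE) in CPN-/-CRY1, which was not called (adjusted p = 0.075, edgeR). In CPN-/-CRY2 it was 0.55 ± 0.21 (adjusted p = 0.17). The difference of the CRY lines from each other was 0.05, with a 95% interval from -0.44 to 0.53. The exonic length of Clock is 9.93 kb, and its log2 difference between CPN-/- replicate 1 and replicate 2 was 0.67, where the 308 genes within 10% of its length had a median of 0.57. With the trend with length removed from each library, Clock was at 91.6 and 86.5 CPM in CPN-/-, 102 and 108 CPM in CPN-/-CRY1 and 106 and 100 CPM in CPN-/-CRY2. On that scale the difference of CPN-/-CRY1 was smaller, 0.24, and called (adjusted p = 0.023), and that of CPN-/-CRY2 was 0.21 and not called. DESeq2 called Clock in CPN-/-CRY1 (0.61, adjusted p = 0.022), as did the fit without CPN-/- replicate 1 (0.97) and the fit without replicate 2 (0.31). These 2 fits also called it in CPN-/-CRY2 (0.93 and 0.27), so that the size of the difference rested on which control library was used.

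Npas2 (gene ID 18143, chr1:39193702-39363240, plus strand, 21 exons) codes for the paralog that can replace CLOCK. It was scarce, with between 6 and 64 counts per library. Its level was 0.88 and 0.806 CPM in CPN-/-, 1.58 and 2.08 CPM in CPN-/-CRY1, and 0.367 and 0.222 CPM in CPN-/-CRY2. The 3 lines did not overlap, with CPN-/-CRY1 above CPN-/- and CPN-/-CRY2 below it. In CPN-/-CRY1, Npas2 was 2.14-fold higher than in CPN-/- (log2 fold change 1.10 ± 0.26, adjusted p = 0.026, edgeR). This call was lost with DESeq2 (adjusted p = 0.077) and without either CRY1 replicate (adjusted p = 0.082 and 0.18) or either CRY2 replicate (0.051 for each). In CPN-/-CRY2 the change was -1.51 ± 0.37 on the log2 scale and was not called (adjusted p = 0.066). It was called without the filter on low counts (adjusted p = 0.040) and with the length trend removed (-1.57, adjusted p = 0.023). Without CPN-/- replicate 1 the change was -1.44 and without replicate 2 it was -1.56. The difference between the CRY lines was 6.08-fold (2.61 ± 0.33, 95% interval from 1.83 to 3.38, adjusted p = 0.0033). It passed the threshold under all 15 alternatives that could test it, with adjusted p between 8e-08 and 0.043.

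As a share of the CLOCK-type transcripts, Npas2 took 2.62 ± 0.672% of the CPM per kb of Clock and Npas2 together in CPN-/-, 3.54 ± 0.431% in CPN-/-CRY1 and 0.606 ± 0.168% in CPN-/-CRY2 (SD, n = 2). Clock thus gave nearly all transcripts of this pair in every library. The sum of the pair was between 6.13 and 12.7 CPM per kb. Shares are given as a description, without a test.

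Arntl (gene ID 11865, chr7:113178471-113314126, plus strand, 21 exons) codes for BMAL1. It was at 44.0 and 40.5 CPM in CPN-/-, 52.8 and 56.2 CPM in CPN-/-CRY1, and 54.7 and 51.7 CPM in CPN-/-CRY2. All libraries of the CRY lines were above both CPN-/- libraries, and the CRY lines overlapped each other. Arntl was 1.29-fold higher in CPN-/-CRY1 (log2 fold change 0.37 ± 0.10, adjusted p = 0.039, edgeR). In CPN-/-CRY2 the change was 0.33 ± 0.10 on the log2 scale and was not called (adjusted p = 0.11). CPN-/-CRY1 differed from CPN-/-CRY2 by 0.03, with a 95% interval from -0.20 to 0.27. The exonic length of Arntl is 3.09 kb, and removing the length trend left its level nearly as it was, with 43.8 and 40.0 CPM in CPN-/-, 52.6 and 56.3 CPM in CPN-/-CRY1, and 55.0 and 51.9 CPM in CPN-/-CRY2; the CPN-/-CRY2 difference was then called (0.35, adjusted p = 0.015). The CPN-/-CRY1 call was lost in the fit of its 4 libraries alone (adjusted p = 0.11) and without CRY1 replicate 1 or 2 (0.17 and 0.27) or CRY2 replicate 1 or 2 (0.11 for each). The CPN-/-CRY2 difference was 0.40 without CPN-/- replicate 1 and 0.28 without replicate 2. The 20 tested genes nearest to Arntl on chromosome 7 had a median log2 fold change of 0.30 in CPN-/-CRY1 and 0.19 in CPN-/-CRY2, while the 988 other tested genes of the chromosome had medians of -0.01 and -0.03. The part of this neighbourhood in the change of Arntl was not tested. An exon of Arntl shares 33 bases with Gm45355 on the opposite strand, and whether reads were counted by strand is not given in the sources used here.

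Arntl2 (gene ID 272322, chr6:146794729-146833529, plus strand, 17 exons) codes for BMAL2. It was at 11 and 8.75 CPM in CPN-/-, 9.55 and 9.50 CPM in CPN-/-CRY1, and 11.2 and 11.3 CPM in CPN-/-CRY2. The CPN-/- libraries lay on both sides of the CPN-/-CRY1 libraries, and the CPN-/-CRY2 libraries were the highest of the 6. No comparison called it. The log2 fold change of Arntl2 was -0.06 for CPN-/-CRY1 (95% interval from -0.39 to 0.28, adjusted p = 0.79, edgeR) and 0.18 for CPN-/-CRY2 (from -0.15 to 0.52, adjusted p = 0.44). CPN-/-CRY1 differed from CPN-/-CRY2 by -0.24 (from -0.58 to 0.10, adjusted p = 0.31), and its 20 nearest genes had a median of -0.21 in this comparison. Without CPN-/- replicate 1, the difference in CPN-/-CRY1 turned to 0.12 and that in CPN-/-CRY2 was 0.36. Of the CPM per kb of Arntl and Arntl2 together, Arntl2 took 19.8 ± 1.63% in the parental line, 15.7 ± 0.636% in CPN-/-CRY1 cells and 18.2 ± 0.778% in CPN-/-CRY2 cells. The sum of this pair was between 16.1 and 18.0 CPM per kb in CPN-/- and between 20.3 and 21.5 CPM per kb in the CRY lines.

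Rora (gene ID 19883, chr9:68653404-69388246, plus strand, 11 exons) codes for the receptor RORA, and its 11.24 kb of exon make it the longest of the 6. It was at 1.48 and 0.576 CPM in CPN-/- (47 and 15 counts), 1.74 and 1.72 CPM in CPN-/-CRY1, and 1.58 and 1.59 CPM in CPN-/-CRY2. The libraries of each CRY line were nearly equal and above both CPN-/- libraries, of which replicate 2 was the lowest of all. No comparison called Rora. Its log2 fold change was 0.71 ± 0.37 for CPN-/-CRY1 (adjusted p = 0.19, edgeR) and 0.59 ± 0.38 for CPN-/-CRY2 (adjusted p = 0.37), and between the CRY lines it was 0.13 with a 95% interval from -0.70 to 0.96. The 2 CPN-/- libraries differed by 1.36 on the log2 scale for Rora, compared to a median of 0.64 for the 209 genes within 10% of its length. Without CPN-/- replicate 1 the differences were 1.58 and 1.46, whereas without replicate 2 they were 0.24 and 0.11. With the length trend removed, Rora was at 1.44 and 0.883 CPM in CPN-/-, and between 1.41 and 1.59 CPM in the libraries of the CRY lines. One of its exons shares 82 bases with Gm15511 on the opposite strand.

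Rorb (gene ID 225998, chr19:18930609-19111196, minus strand, 10 exons) codes for RORB, which is known mainly from the brain, retina and pineal gland. It was at 4.24 and 2.84 CPM in CPN-/- (135 and 74 counts), 0.719 and 1.07 CPM in CPN-/-CRY1 (26 and 33 counts), and 7.64 and 6.11 CPM in CPN-/-CRY2 (208 and 165 counts). The 3 lines did not overlap, with CPN-/-CRY1 the lowest and CPN-/-CRY2 the highest, the reverse of Npas2. Rorb was 4.02-fold lower in CPN-/-CRY1 than in CPN-/- (log2 fold change -2.01 ± 0.30, adjusted p = 0.0056, edgeR). Of the 16 alternatives, 15 called it, and only without CRY1 replicate 1 was the call lost (-1.73, adjusted p = 0.064). In CPN-/-CRY2 the change was 0.95 ± 0.24 on the log2 scale and was not called (adjusted p = 0.076). DESeq2 called it (0.95, adjusted p = 0.037), as did the fit without the filter on low counts (0.94, adjusted p = 0.024). The fit with the length trend removed also called it (0.62, adjusted p = 0.036). Without CPN-/- replicate 1 the change was 1.28 and without replicate 2 it was 0.70. Between the CRY lines, Rorb was 7.74-fold lower in CPN-/-CRY1 (-2.95 ± 0.29, 95% interval from -3.64 to -2.27), with an adjusted p = 0.0013 and a call under all 16 alternatives. The 472 other tested genes on chromosome 19 had median log2 fold changes of 0.32 in CPN-/-CRY1, -0.17 in CPN-/-CRY2 and 0.46 between the CRY lines. These medians have the opposite sign to the change of Rorb. Relative to them, Rorb differed by -2.32, 1.11 and -3.41.

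**Figure D3:**
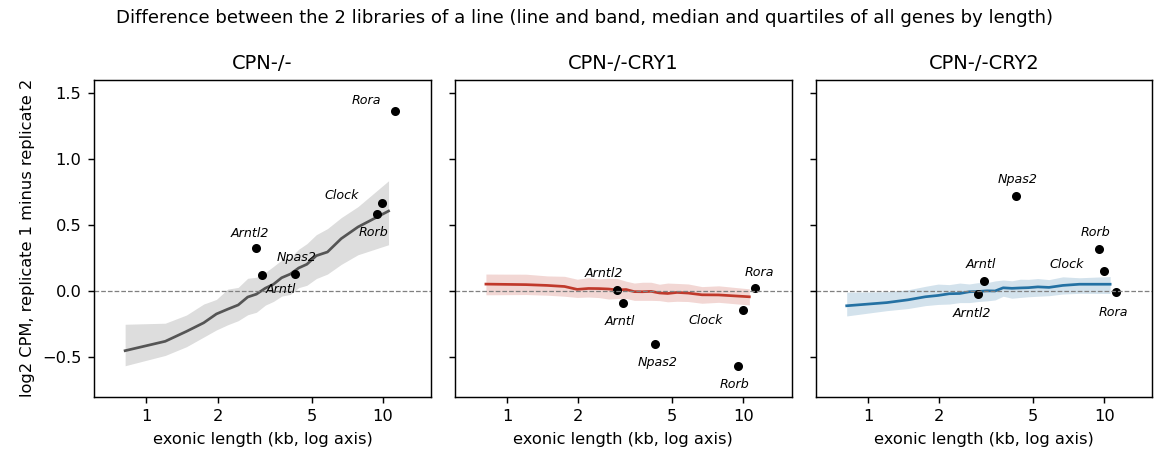
Log2 CPM difference between replicate 1 and replicate 2 of each line against exonic length in kb (log axis). Lines and bands are the median and quartiles of all genes in 20 length classes, and points are the 6 genes. In CPN-/- the difference rises with length and Clock (0.67) and Rorb (0.58) lie on the trend, with Rora (1.36) above it. In the CRY lines the trend is weaker, falling with length in CPN-/-CRY1 and rising in CPN-/-CRY2.

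Together, the ROR transcripts of the CPN-/-CRY1 line had another composition than those of the other lines. Rorb took 77.4 and 85.4% of the CPM per kb of Rora and Rorb together in CPN-/- cells, 32.9 and 42.5% in CPN-/-CRY1 cells, and 85.2 and 82.0% in CPN-/-CRY2 cells. The sum of the pair was 0.58 and 0.351 CPM per kb in CPN-/- cells, 0.231 and 0.266 in CPN-/-CRY1 cells, and 0.949 and 0.788 in CPN-/-CRY2 cells. The lines did not overlap in this sum, and it was not tested. The summed Rora and Rorb transcripts thus stood at their lowest in CPN-/-CRY1 and at their highest in CPN-/-CRY2. Arntl differed by 0.03 on the log2 scale between these lines. Whether the ROR transcripts bear on the level of Arntl was not tested, and receptor protein was not measured here.

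**Figure D4:**
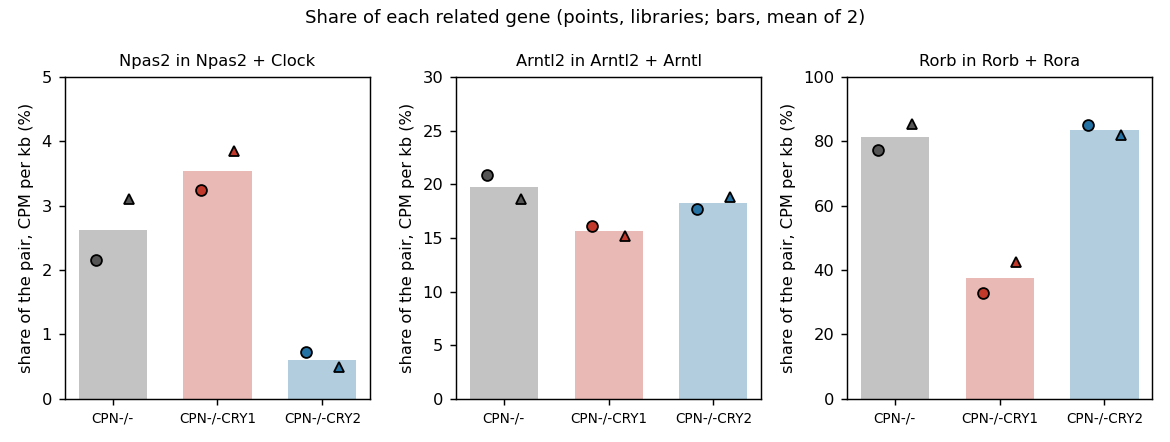
Share of Npas2, Arntl2 and Rorb in the CPM per kb of each gene and its relative, in percent (linear axes from 0, which end at 5, 30 and 100%). Points are libraries and bars are means of 2. Rorb takes 32.9 and 42.5% in CPN-/-CRY1 cells and between 77.4 and 85.4% in the other lines, Npas2 never exceeds 3.85%, and Arntl2 stays between 15.2 and 20.9%.

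Markers of other cell types were read beside Npas2 and Rorb. The summed level of 6 muscle markers was between 1410 and 1790 CPM in CPN-/- and between 5120 and 5310 CPM in CPN-/-CRY1. In CPN-/-CRY2 it was between 2140 and 2380 CPM. Of the 3 that were tested, 2 were higher in CPN-/-CRY1 (Acta2, 1.69, and Tagln, 1.77) and 1 was lower (Des, -1.13). These 3 are named after their values were seen. Myod1 and Myog were at no more than 3 counts in every library. The sum of 5 neuronal markers was between 62.0 and 82.8 CPM in CPN-/-, 102 and 104 CPM in CPN-/-CRY1 and between 144 and 152 CPM in CPN-/-CRY2, with Rbfox3 and Snap25 at no more than 3 counts. In CPN-/-CRY1 (24.3% of all genes called), 1 of the 9 fibroblast markers tested was higher (Pdgfrb, 0.88). There 2 were lower (Pdgfra, -1.31, and Dcn, -2.92) and 6 were not called. In CPN-/-CRY2 (6.66%), 1 was higher (Dcn, 1.44) and none was lower. Dcn, like these others named after its values were seen, had 0.723 and 0.921 CPM in CPN-/-, 0.166 and 0.0324 CPM in CPN-/-CRY1, and 2.24 and 2.19 CPM in CPN-/-CRY2. The sum of all 11 fibroblast markers was between 11200 and 14100 CPM, 13600 and 13900 CPM, and 17400 and 17800 CPM in the same order of lines. The part of these markers in the changes of Npas2 and Rorb was not tested. Epithelial, endothelial and adipocyte markers summed to at most 1.78 CPM in any library, and 6 leukocyte markers to at most 15.4 CPM with Ptprc at no more than 3 counts.

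The genes around the activators were read from lists. In CPN-/-CRY1, where 24.3% of all tested genes were called, 13 of the 17 E-box target genes were lower and 1 was higher. Their median log2 fold change was -1.62. The lower genes included Hlf (-4.61 ± 0.32, adjusted p = 0.00038, edgeR), a PAR bZIP output factor of the clock, and Ciart (-3.32 ± 0.13, adjusted p = 7.8e-05), a repressor of CLOCK-BMAL1. In CPN-/-CRY2, where 6.66% of all genes were called, 7 were lower and 1 was higher, with a median of -0.62. Hlf (-2.01) and Ciart (-1.42) were again among the lower genes. The gene that was higher was Cry1 in CPN-/-CRY1 and Cry2 in CPN-/-CRY2, whose counts can include the introduced cDNA. The list holds the 6 knocked-out genes themselves, of which Per1 (-1.97) and Per2 (-2.30) were among the lower genes in CPN-/-CRY1, and Nr1d1 (-0.34) and Nr1d2 (-0.28) were not called. Of the 17, 12 were lower and 1 was higher in CPN-/-CRY1 when compared with CPN-/-CRY2, with a median of -1.02. Of all tested genes, 16.3% were called in this comparison.

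Of 14 genes listed as targets of ROR or NR1D outside the 6, 7 were tested. In CPN-/-CRY1 (24.3% of all genes called), 4 were lower, among them Ccl2 and Insig2, and Cry1 was higher. The median over the 7 was -0.44. Insig2 (-0.44) is named after its value was seen. In CPN-/-CRY2 (6.66%), 3 were lower, among them Cry1 and Ccl2, none was higher, and the median was -0.94. Ccl2, a chemokine, fell in both lines (log2 fold changes -2.73 and -3.22). Between the CRY lines (16.3%) edgeR called Cry1 alone (1.84), DESeq2 called 3, and the median was 0.13. Against CPN-/-, Cry1 was at 0.57 in CPN-/-CRY1, which carries its cDNA, and at -1.27 in CPN-/-CRY2, which does not.

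Of 12 other factors of the bHLH-PAS family that were listed, 8 were tested. In CPN-/-CRY1, 1 was higher and 1 was lower (24.3% of all genes called), in CPN-/-CRY2 2 were higher (6.66%), and between the CRY lines 1 was higher and 3 were lower (16.3%). Npas4, an activity-regulated relative of Npas2, was higher in CPN-/-CRY1 (2.54 ± 0.20, adjusted p = 0.00056, edgeR) and in CPN-/-CRY2 (1.32 ± 0.23, adjusted p = 0.019). Ahr, the aryl hydrocarbon receptor, was lower in CPN-/-CRY1 (-0.79 ± 0.13, adjusted p = 0.0067), and Npas3 was higher in CPN-/-CRY2 (0.83 ± 0.18, adjusted p = 0.041). The medians of the 8 were 0.10 and 0.41. When the CRY lines were compared, Npas4 was higher and Ahr, Arnt (-0.54) and Hif1a (-0.52) were lower in CPN-/-CRY1, of which Arnt and Hif1a are named after their values were seen.

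All 24 coactivators and corepressors of CLOCK-BMAL1 or ROR were tested. In CPN-/-CRY1, where 24.3% of all genes were called, 2 were higher and none was lower: Nrip1 (1.20 ± 0.35, adjusted p = 0.047, edgeR), a corepressor of nuclear receptors, and Kat2b (0.45 ± 0.13, adjusted p = 0.049), an acetyltransferase. DESeq2 called 5 here, 8 had an unadjusted p under 0.05, and the median was 0.31. In CPN-/-CRY2 and between the CRY lines neither edgeR nor DESeq2 called any. Of all tested genes, edgeR called 6.66% and 16.3% in these comparisons. Here 3 and 1 had an unadjusted p under 0.05, and the medians were 0.27 and 0.03. Nrip1 was at 9.53 and 3.80 CPM in CPN-/-, a gap of the kind seen for Clock and Rora. Of 11 enzymes that modify BMAL1 or CLOCK, the kinase Gsk3b was higher in CPN-/-CRY1 (0.70 ± 0.19, adjusted p = 0.038) and none was lower, with a median of -0.05; DESeq2 called 3 and 4 had an unadjusted p under 0.05. In CPN-/-CRY2 (6.66% of all genes called) none was called by edgeR or DESeq2, 0 had an unadjusted p under 0.05, and the median was -0.04. Between the CRY lines (16.3%) edgeR called only Ube2o, a ubiquitin-conjugating enzyme named after its value was seen (-0.40, adjusted p = 0.045).

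**Figure D5:**
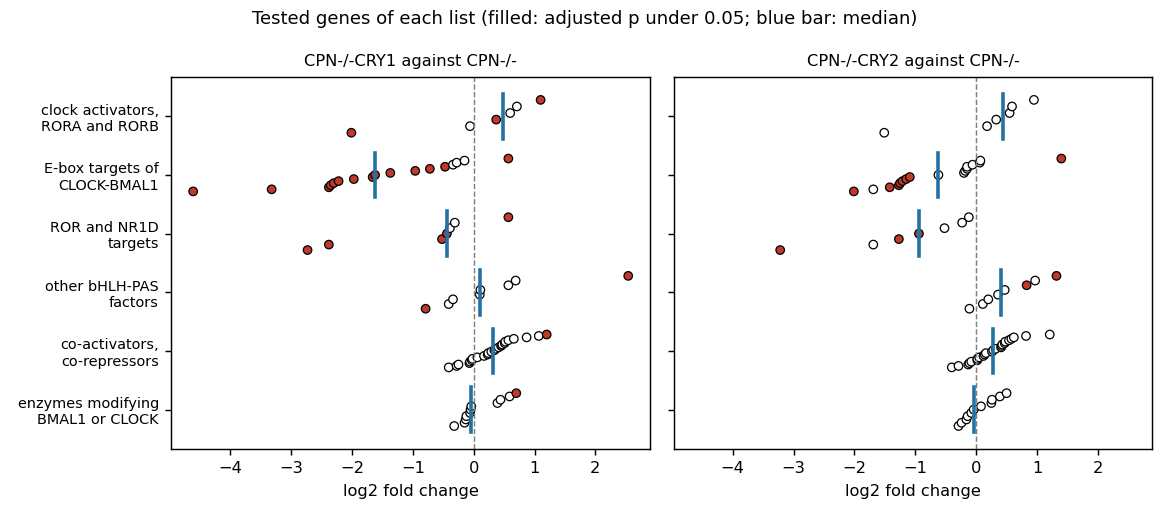
Log2 fold change against CPN-/- of the tested genes of each list in CPN-/-CRY1 (left) and CPN-/-CRY2 (right); filled points have an adjusted p under 0.05 from edgeR and blue bars are medians. The 6 clock activators and ROR genes have medians of 0.48 and 0.44, and the 17 E-box target genes have medians of -1.62 and -0.62. The trend with exonic length is not removed here.

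For each of the 6 genes, the 2 genes with the most similar profile over the 6 libraries were sought among tested genes that averaged 100 counts or more, by the root mean square difference of centred log2 CPM. The nearest to Clock were Aspm (0.02) and Atrn (0.03), with exonic lengths of 9.87 and 8.74 kb, and those nearest to Rora were Dst (0.05) and Hspg2 (0.05), with 32.1 and 14.22 kb. Clock and Rora thus paired with other long transcripts. Usp38 (0.01) and Polr3f (0.03) were nearest to Arntl, and Gcfc2 (0.03) and Zfp157 (0.03) to Arntl2. Npas2 and Rorb had less similar neighbours. These were Ankrd1 (0.19) and Pla1a (0.25) for Npas2, and Asxl3 (0.18) and 9430018G01Rik (0.22) for Rorb.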

How the data were processed

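mRNA was sequenced in 6 libraries from 3 mouse embryonic fibroblast lines. Per the methods of the study, the authors mapped stranded paired-end mRNA-seq reads to mm10 with STAR and counted reads per gene with featureCounts. The deposited values are these whole counts for 27179 NCBI gene identifiers, without normalization; the gene annotation and the strand setting are not given in the sources used here. Of these identifiers, 25275 matched the RefSeq table of mm10, which gave symbols, positions and promoter windows. Exonic lengths (88.7% of tested genes), exons and overlaps came from the GENCODE basic annotation of mm10. No near-identical copy (95% identity over at least 150 bases of transcript) was found for the 6 genes with BLAST+.

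Counts were analysed in R 4.3.3 with edgeR 4.0.16. The filter was filterByExpr at its defaults (minimum count 10, minimum total 15), and of the 14069 genes kept, 726 had no RefSeq entry. One quasi-likelihood model (robust, two-sided) with the line as its only term used all libraries and TMM factors, and p-values were adjusted by Benjamini-Hochberg over all tested genes. Alternatives were other normalizations and filters, a replicate block, the 4 libraries of a comparison, DESeq2 1.42.0 (the tool of the study), removal of the trend with exonic length (loess, span 0.5), chromosome medians, and each library left out. The 2 libraries of a line are separate RNA preparations, and p-values measure the spread between them.

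The 6 genes were described in full. From each list, the 2 genes with the largest change in each direction were named among those called against CPN-/-, and others where a count was small. Some genes of the lists enter the counts and medians but are not reported here by name. The genes and lists were chosen with earlier results of these data known. Replicate numbers did not pair the libraries (correlations of same-numbered deviations -0.08, 0.14 and -0.03).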

Additional observations from a re-analysis of the deposited data

Results flagged for a closer look

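Several genes responded differently in CPN-/-CRY1 and CPN-/-CRY2, as tested by the direct comparison of the CRY lines with edgeR. Among the 6 genes these were Npas2, whose log2 fold changes differed by 2.61 ± 0.33 (SE), and Rorb, whose log2 fold changes differed by -2.95 ± 0.29. Both had opposite directions in the CRY lines, in all 4 libraries of these lines relative to both CPN-/- libraries. Among the genes of the surrounding lists, the difference was 1.84 for Cry1 and -2.77 for Cry2. Against CPN-/-, each was higher in the line that carries its cDNA (0.57 for Cry1, 1.40 for Cry2). In the other CRY line each was lower (-1.27 for Cry1, -1.37 for Cry2). The difference was -2.60 for Hlf and -1.90 for Ciart, both lower in the 2 CRY lines and more so in CPN-/-CRY1. It was 1.22 for Npas4, which was higher in both, and -1.15 for Ahr. With 2 libraries per line, single libraries could not be tested as outliers.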

How the results depend on the processing

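With 2 libraries per line, a fit without 1 library assumes that the remaining library varies like the other groups. In CPN-/-CRY1 against CPN-/-, 3423 genes were called. This became 5373 with the length trend removed, 5217 with that and the replicate block, 1798 with only the 4 libraries of the comparison, and between 663 (without CPN-/-CRY1 replicate 2) and 8980 (without CPN-/- replicate 1) with a library left out. In CPN-/-CRY2 against CPN-/-, 937 genes became 583 with at least 10 counts in every library, 2390 with the length trend removed, 2352 with the block as well, 473 with 4 libraries, and between 199 (without CPN-/-CRY2 replicate 1) and 8046 (without CPN-/- replicate 1). Between the CRY lines, 2292 became 4508, 4386, 6838 with 4 libraries, and between 475 (without CPN-/-CRY1 replicate 1) and 6897 (without CPN-/- replicate 1). The number called among the 6 genes was 3 in CPN-/-CRY1 (between 0 and 5 with a library left out), 0 in CPN-/-CRY2 (2 without a filter, 3 with the length trend removed, 3 with the block as well, 1 with DESeq2, and between 0 and 6) and 2 between the CRY lines (1 with at least 10 counts in every library, where Npas2 was not tested, and 2 with any library left out). The replicate block, whose numbers do not pair the libraries, called 3458, 977 and 2188 genes; it called Clock in CPN-/-CRY1 (0.63, adjusted p = 0.041) and lost Arntl (adjusted p = 0.055). With a library left out, the sign of a difference that was not called turned for Arntl2 in CPN-/-CRY1 (between -0.20 and 0.12) and, between the CRY lines, for Clock (between -0.03 and 0.12; -0.02 without CRY1 replicate 2) and Arntl (between -0.01 and 0.08). Per kilobase of exon instead of per count, the log2 ratio of Npas2 to Clock was -5.24, -4.77 and -7.38 in CPN-/-, CPN-/-CRY1 and CPN-/-CRY2, that of Arntl2 to Arntl -2.44 and -2.16 in the CRY lines, and that of Rorb to Rora 2.36 in CPN-/-CRY2. The ratios per kilobase differ from those per count by the log2 ratio of the exonic lengths of the pair, which is the same in every line. The cause of the other changes was not tested. Fewer genes or libraries enter some fits, and the number called both rose and fell with a library left out. Depth limits Npas2, with between 6 and 64 counts, and Rora, with between 15 and 63.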
